A study of Mus musculus with 16 samples.

Results

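Pulmonary surfactant is made by alveolar type 2 (AT2) epithelial cells, and 10 genes of that machinery were followed here: Sftpa1, Sftpb, Sftpc, Sftpd, Abca3, Lamp3, Napsa, Slc34a2, Lpcat1 and Etv5. Members were every probe set of the array whose platform annotation gives 1 of these names as its only symbol. That gave 20 probe sets for 9 genes, of 45037 probe sets and 18193 named genes tested in the series. Lamp3, a membrane protein of lamellar bodies, was represented only by a probe set that the annotation also assigns to another gene, so no value is given for it. The genes were listed for their role in AT2 cells, but with earlier results of these data known.

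RNA came from the whole left lung of male Balb/c mice aged 15 weeks, with 4 arrays in each of 4 groups. AA mice breathed filtered air both in utero and as adults, AS mice air in utero and second-hand smoke (SHS) as adults, SA mice SHS in utero and air as adults, and SS mice SHS at both times. SHS was sidestream smoke at a particle load of 10 mg/m3, breathed 5 hours daily on 7 days of each week. The labels call the replicates biological and name no litter, dam or batch, so littermates cannot be told from unrelated mice, and whole-lung RNA holds every lung cell type.

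AT2 cells store surfactant lipid and protein in lamellar bodies and release it onto the alveolar surface, where it lowers surface tension. Lpcat1 remodels phosphatidylcholine, Abca3 pumps lipid into the lamellar body, Napsa is a protease that trims the precursors of the hydrophobic proteins SP-B and SP-C, and Slc34a2 is the apical phosphate transporter of AT2 cells. SP-B and SP-C spread the lipid film, while SP-A and SP-D are collectins that bind microbes. Etv5 is an ETS transcription factor that acts below FGF and ERK signalling and maintains AT2 identity.

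Sftpb and Sftpa1 had the only member windows that match the letters of NKX2-1, a known regulator of AT2 promoters. Abca3 alone among the members passed the test below in AS minus AA, at 1 of its probe sets. The start-site windows of these 3 genes are shown. Each is read 5′ to 3′ from 250 bases before to 50 bases after the RefSeq start of the gene in GRCm38.p6. Capitals mark matches, on either strand, to the letters CTCAAG (NKX2-1), TGTTTAC (FOX factors), CCGGAA (ETS factors) or TTGCNNAA (C/EBP).
Sftpb, chr6:72304360-72304659, + strand: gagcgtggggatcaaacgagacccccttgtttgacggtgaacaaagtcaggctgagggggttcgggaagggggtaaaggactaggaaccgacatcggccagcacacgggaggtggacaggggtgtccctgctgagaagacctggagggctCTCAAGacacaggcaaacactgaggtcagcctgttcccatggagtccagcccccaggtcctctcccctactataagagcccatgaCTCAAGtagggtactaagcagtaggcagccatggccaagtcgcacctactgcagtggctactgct
Sftpa1, chr14:41131538-41131837, + strand: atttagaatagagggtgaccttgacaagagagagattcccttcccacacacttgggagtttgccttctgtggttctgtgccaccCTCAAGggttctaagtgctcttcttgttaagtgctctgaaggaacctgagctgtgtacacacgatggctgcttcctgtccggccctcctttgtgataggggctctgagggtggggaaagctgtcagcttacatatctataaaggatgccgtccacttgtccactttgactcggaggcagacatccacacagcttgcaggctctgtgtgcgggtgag
Abca3, chr17:24351773-24352072, + strand: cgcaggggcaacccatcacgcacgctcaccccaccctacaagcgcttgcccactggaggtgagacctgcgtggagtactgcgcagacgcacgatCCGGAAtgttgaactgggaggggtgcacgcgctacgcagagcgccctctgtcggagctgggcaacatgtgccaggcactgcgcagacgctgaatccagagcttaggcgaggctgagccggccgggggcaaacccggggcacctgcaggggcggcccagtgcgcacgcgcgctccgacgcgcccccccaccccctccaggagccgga

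Sftpb carried 2 matches to CTCAAG, at positions -100 and -15 from the start, and Sftpa1 carried 1, at -166. The Abca3 window held none of these and 1 ETS match, at -156. Of 32851 windows of this length in the RefSeq table, 15.9% held CTCAAG, 14.9% CCGGAA, 10.8% TTGCNNAA and 3.6% TGTTTAC. Windows were found for 7 of the 10 genes. That of Slc34a2 held 1 C/EBP match, those of Lamp3 and of 1 of 2 Etv5 windows 1 FOX match each, and that of Lpcat1 none. These matches are letters in a window and not measured binding.

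Before the comparisons, replicate arrays were set against each other. Over 300 bright probe sets of high variance, the root mean square difference was 0.098 between AS replicates 3 and 4 and 0.072 between SS replicates 1 and 2, whereas the other 22 within-group pairs had 0.313 to 0.739. Each of these pairs was averaged into 1 sample, called AS 3-4 and SS 1-2, so AA and SA have 4 samples each and AS and SS have 3 each. AS 3-4 stood farthest from the AA mean, with an SD of its difference of 0.290 over all probe sets against 0.119 to 0.228 in the other 13 samples. It matters for these genes and is shown separately below.

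All levels are the deposited log2 values, on which 1 unit is a doubling, and a level at 1 probe set is not comparable with that at another. The array's number of samples limits the precision. In bulk tissue, fewer AT2 cells and less RNA per AT2 cell cannot be told apart. Differences were tested with limma over all 45037 probe sets and counted as called at a Benjamini-Hochberg adjusted p under 0.05.

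Sftpc and Sftpa1, the genes of SP-C and SP-A, had closely spaced values in all lungs, but at probe sets at or near the top of the measured scale. At 1418639_at, Sftpc had group means of 15.08 ± 0.01 (SD, n = 4) in AA, 15.08 ± 0.01 (n = 3) in AS, 15.04 ± 0.03 (n = 4) in SA and 15.08 ± 0.02 (n = 3) in SS. Its lowest lung was at 15.01 and its highest at 15.10, a span of 0.089, and the groups overlapped. This probe set had the highest value of the table on all 16 arrays, and the highest value of any probe set was 15.11. Differences at the top of an array's scale can be compressed, which was not tested, so the narrow spread and intervals at this probe set do not show that Sftpc RNA was unchanged. The difference AS minus AA was 0.01 ± 0.05 (SE), with a 95% interval from -0.11 to 0.12, and SS minus SA was 0.04, with an interval from -0.07 to 0.15. The second Sftpc probe set, 1438290_x_at, lay between 3.17 and 4.09, near the bottom of the table (percentile 7.3), and gives little information on the gene.

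Sftpa1 at 1422334_a_at ran from 14.405 to 14.524 over the 14 samples, with a median of 14.45 and a rank of 13 to 18 among all probe sets, so the same limit applies. It ran at 1429626_at, which ranked 167 to 271, from 13.11 to 13.42, with a median of 13.28. In AS minus AA these had -0.01 (95% interval -0.12 to 0.11) and -0.06 (-0.21 to 0.10), and no group stood apart. The Pearson r between these probe sets across samples was 0.06, so the small scatter at 1 was not shared by the other.

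Sftpd, the gene of the collectin SP-D, had levels at 1420378_at of 13.76 ± 0.07 (SD, n = 4) in AA, 13.82 ± 0.11 (n = 3) in AS, 13.72 ± 0.12 (n = 4) in SA and 13.75 ± 0.08 (n = 3) in SS. Its AS minus AA difference of 0.06 had a 95% interval from -0.11 to 0.23. Slc34a2 at 1416854_at ran from 13.82 to 13.97 in all, with a difference AS minus AA of 0.03 (-0.09 to 0.15) and SS minus SA of -0.01 (-0.13 to 0.11). For both genes the groups overlapped, and the highest of the 14 samples was AS 3-4. Slc34a2 ranked 48 to 71 and Sftpd 53 to 132 among all probe sets. The limit given for Sftpc may therefore apply to them too, so their narrow intervals do not show unchanged RNA.

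Sftpb, the gene of SP-B, had positive differences after adult smoke that did not pass the test. At 1437028_at, its only probe set, the AA lungs had 13.69, 13.70, 13.62 and 13.68, and the AS samples 13.86, 13.73 and, in AS 3-4, 14.24. The SA lungs had 13.58, 13.51, 13.64 and 13.76, and the SS samples 13.79, 13.79 and 13.76. All AS and SS samples lay above all AA lungs, while SA replicate 4 reached the lower end of the SS samples. The difference was 0.27 ± 0.10 (SE) in AS minus AA (limma, adjusted p = 0.148) and 0.16 ± 0.10 in SS minus SA (adjusted p = 0.507). Averaged over both in-utero exposures it was 0.21 ± 0.07 or 1.16-fold (adjusted p = 0.0771). Without AS 3-4 the AS minus AA difference was 0.12 (adjusted p = 0.456), and if the 16 arrays are taken one by one, without averaging, it was 0.35 and passed (adjusted p = 0.0391). The averaged difference was 0.27 without AS replicate 2, where it passed, and 0.14 without AS 3-4, where it did not (adjusted p = 0.109).

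**Figure D1:**
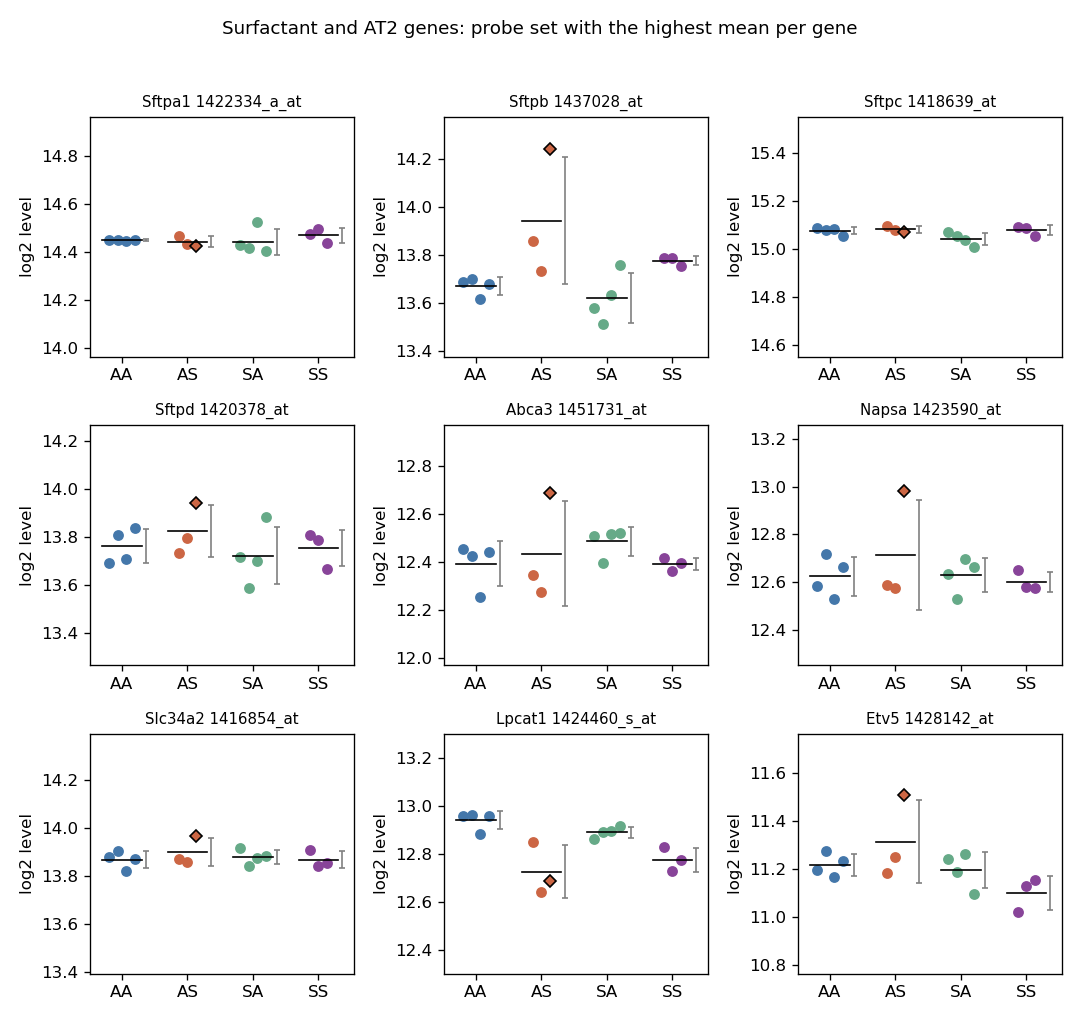
Log2 level (vertical axis, each panel spanning 1 unit) in each sample of the 4 groups at the probe set with the highest mean of each gene, with a bar for the group mean and a grey line for ±1 SD. The outlined diamond is AS 3-4, which is the highest sample for Sftpb, Sftpd, Abca3, Napsa, Slc34a2 and Etv5, while Sftpc spans only 0.089.

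Abca3, the lipid pump of the lamellar body, gave different answers at its 3 probe sets, and 1 of them was the only member probe set called in AS minus AA. That probe set, 1451869_at, was the dimmest of the 3, with a mean at percentile 59.7 of all probe sets, against 98.5 and 92.6. At 1451869_at the AA lungs had 7.87, 8.36, 7.83 and 7.96, and the AS samples 6.99, 6.48 and 7.18. The SA lungs had 8.12, 7.81, 7.81 and 7.95, and the SS samples 7.84, 7.64 and 7.53. The AS samples lay below every other sample, with no overlap, whereas SS overlapped with AA and SA. The value fell by 1.12 ± 0.16 (SE) in AS minus AA, to 0.459 of the AA level (limma, adjusted p = 0.00376, n = 3 and 4, lower in 3 of 3 AS samples).

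The other Abca3 probe sets showed no such fall. At 1451731_at, the one with the highest mean, the AA lungs had 12.45, 12.42, 12.25 and 12.44, and the AS samples 12.34, 12.28 and 12.69. The SA lungs had 12.51, 12.40, 12.52 and 12.52, and the SS samples 12.42, 12.36 and 12.40, so all 4 groups overlapped. Its difference AS minus AA was 0.04 ± 0.09, with a 95% interval from -0.15 to 0.23. At 1425496_at the AA lungs ran from 10.55 to 10.72 and the AS samples had 10.76, 10.59 and 11.32, a difference of 0.23 ± 0.13 (adjusted p = 0.306). Across the 14 samples 1451869_at had a Pearson r of 0.23 with 1451731_at and -0.19 with 1425496_at, while those other two had 0.80 with each other. Without AS 3-4 these were 0.61, 0.22 and 0.62. Which stretch of Abca3 each probe set reads was not analysed here, and the reason for their difference was not tested.

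**Figure D2:**
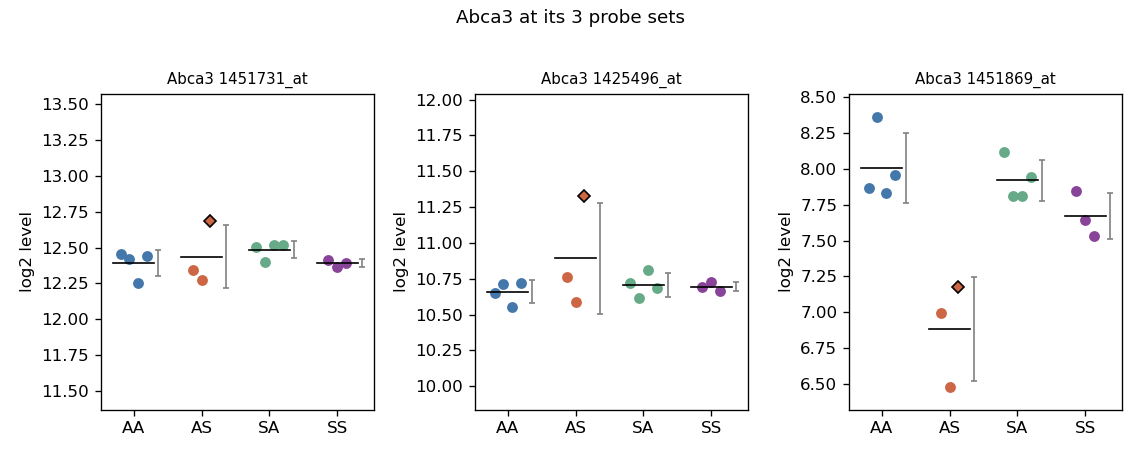
Log2 level of Abca3 (vertical axis, all panels of the same span) in each sample of the 4 groups at its 3 probe sets, with group means as bars, ±1 SD as grey lines and AS 3-4 as an outlined diamond. Only at 1451869_at do the AS samples, between 6.48 and 7.18, lie below all other samples.

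After in-utero smoke, the adult difference at 1451869_at, SS minus SA, was -0.25 ± 0.16 (adjusted p = 0.504). SS exceeded AS there by 0.79 ± 0.17 (adjusted p = 0.037, higher in 3 of 3 SS samples), and the 2 adult effects differed by 0.87 ± 0.22, which did not pass (interaction, adjusted p = 0.169). The SS minus AS call did not pass without AS replicate 1 (0.84), AS replicate 2 (0.59), SA replicate 2 (0.79), SA replicate 3 (0.79), SS 1-2 (0.70), SS replicate 3 (0.80) or SS replicate 4 (0.86), with adjusted p from 0.051 to 0.163. Averaged over both in-utero exposures, the adult effect was -0.69 ± 0.11 (adjusted p = 0.00431). The AS minus AA call was lost only when the other groups were left out of the fit (adjusted p = 0.0659).

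Lpcat1, the acyltransferase of surfactant phosphatidylcholine, was slightly lower after adult smoke at its probe set with the highest mean. At 1424460_s_at the AA lungs had 12.96, 12.96, 12.88 and 12.96, and the AS samples 12.85, 12.64 and 12.69. The SA lungs had 12.86, 12.89, 12.90 and 12.92, and the SS samples 12.83, 12.73 and 12.77. In both in-utero groups the smoke-exposed adults lay below the air-exposed ones without overlap. Averaged over both, the level fell by 0.16 ± 0.04 (SE), to 0.892 of its level in air (limma, adjusted p = 0.0433, n = 6 and 8), with -0.22 (adjusted p = 0.09) in AS minus AA and -0.11 (adjusted p = 0.436) in SS minus SA.

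That call was marginal. It held in 9 of 23 alternatives, and among single samples left out only without AA replicate 3 or AS replicate 1. Its adjusted p was between 0.0504 and 0.112 without any of the other 12 samples (AA replicates 1, 2 and 4, AS replicate 2, AS 3-4, all 4 SA lungs, SS 1-2, SS replicates 3 and 4), 0.0523 with the arrays centred on their medians and 0.0553 with array weights. The value stayed between -0.20 and -0.13 throughout.

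The other 4 Lpcat1 probe sets differed among themselves. At 1424459_at the AS samples had 12.30, 11.96 and 12.62 and the AA lungs 12.29 to 12.46, and at 1451359_at the AS samples had 11.27, 11.24 and 11.82 and the AA lungs 11.25 to 11.56. At both, AS 3-4 was the highest sample of all and AS replicate 2 was the lowest of its group. The adult effect averaged over both in-utero exposures was -0.14 ± 0.08 and -0.16 ± 0.09, and neither passed. Without AS 3-4 these were -0.22 (adjusted p = 0.05 after rounding, just under the threshold) and -0.25 (adjusted p = 0.0376). Both then passed, the first only narrowly. At 1451359_at, SS minus SA was -0.33 ± 0.12 (adjusted p = 0.219). The dimmer 1420293_at had a positive difference of 0.27 in AS minus AA (adjusted p = 0.139), with a Pearson r of -0.80 to 1424460_s_at across samples, and 1420294_at stayed between 4.12 and 4.51. Without AS replicate 1, 1424460_s_at and 1420293_at both passed in AS minus AA.

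Napsa, the protease of surfactant precursors, at 1423590_at had 12.58, 12.72, 12.53 and 12.67 in the AA lungs and 12.59, 12.58 and 12.98 in the AS samples. SA lungs lay between 12.53 and 12.70 and SS samples between 12.58 and 12.65. AS 3-4 alone stood above the rest, and the difference AS minus AA was 0.09 with a 95% interval from -0.10 to 0.29. The dimmer Napsa probe set 1430744_at leaned the other way, with -0.32 ± 0.15 in AS minus AA (adjusted p = 0.251) and -0.42 ± 0.15 in SS minus AA (adjusted p = 0.329). At that probe set the SS samples, between 6.83 and 7.23, reached into the range of the AA lungs, between 7.15 and 7.73.

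Etv5, the ETS factor of AT2 identity, had its highest values in AS 3-4 at each of its 3 probe sets. At 1420998_at the AA lungs had 8.60, 8.74, 8.77 and 8.75, and the AS samples 8.93, 8.86 and 9.46. The SA lungs had 8.74, 8.74, 8.82 and 8.64, and the SS samples 8.49, 8.79 and 8.68. All 3 AS samples lay above all other samples there. The difference was 0.37 ± 0.12 in AS minus AA (adjusted p = 0.117) and -0.43 ± 0.13 in SS minus AS (adjusted p = 0.144), and neither passed. At 1450082_s_at AS minus AA was 0.28 ± 0.10 (adjusted p = 0.141), and at 1428142_at, the one with the highest mean, 0.10 ± 0.08 (adjusted p = 0.496). Without AS 3-4 the differences at 1420998_at, 1450082_s_at and 1428142_at were 0.18, 0.13 and 0, with adjusted p of 0.358, 0.437 and 0.999. Without averaging of the near-identical arrays, 1420998_at and 1450082_s_at passed in AS minus AA, with 0.47 (adjusted p = 0.032) and 0.35 (adjusted p = 0.0391).

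**Figure D3:**
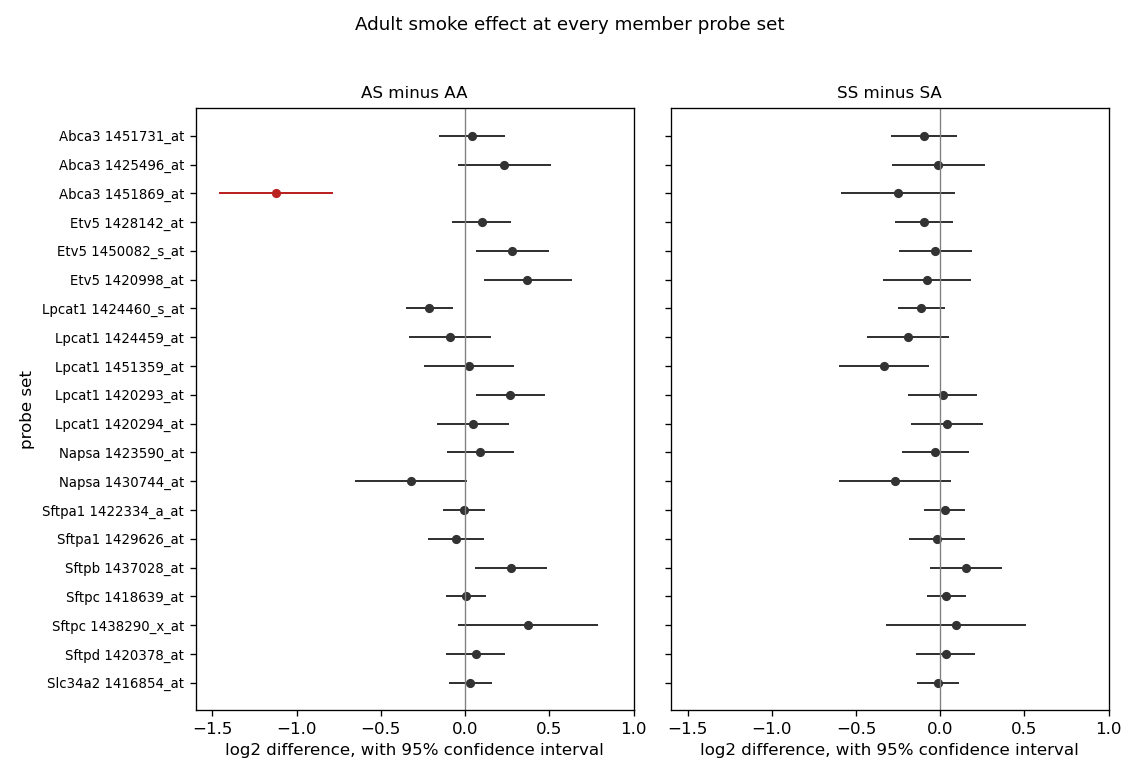
Difference in log2 level (horizontal axis) with its 95% confidence interval for each of the 20 probe sets in AS minus AA and SS minus SA, with calls in red. The only red point is Abca3 1451869_at in AS minus AA, at -1.12.

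Calls under limma were counted over the 20 probe sets, beside the share called among all probe sets. AS minus AA had 1 called, beside 1.55%, and 6 with an unadjusted p under 0.05, beside 20.3% of all probe sets. SS minus SA had 0 called, beside 1.64%, and 1 with an unadjusted p under 0.05, beside 14.5%. SA minus AA, the effect of in-utero smoke in adults kept in air, had 0 called, beside 0%, and 0 with an unadjusted p under 0.05, beside 6.23%, and its lowest adjusted p was 0.926. SS minus AS had 1 called, beside 0.968%, and 4 with an unadjusted p under 0.05, beside 13.6%. SS minus AA had 0 called, beside 0.4%, and 4 with an unadjusted p under 0.05, beside 10.3%. The interaction had 0 called, beside 0.131%, and 3 with an unadjusted p under 0.05, beside 9.11%. The adult effect averaged over in-utero exposures had 2 called, beside 5.95%, and 5 with an unadjusted p under 0.05, beside 25%. The in-utero effect averaged over adult exposures had 0 called, beside 0.284%, and 2 with an unadjusted p under 0.05, beside 11.9%. An unmoderated test also called 0 in the 5 comparisons with none. Counts of 0 to 2 among 20 probe sets are too few to be read against these shares. Comparisons that share a group, such as AS minus AA and SS minus AS, are not independent.

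The medians over the 9 genes, each at the probe set with its highest mean, were small in every comparison. In AS minus AA the median was 0.04, from -0.22 for Lpcat1 to 0.27 for Sftpb, beside 0.02 over all 18193 genes. In SS minus SA it was -0.01, from -0.11 for Lpcat1 to 0.16 for Sftpb, beside -0.01. In SA minus AA it was -0.02, from -0.05 for Lpcat1 and Sftpb to 0.09 for Abca3, beside 0.005. The members shared no direction in any of these.

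AS 3-4 was the highest of the 14 samples at 11 of the 20 probe sets and the lowest at 0. Over all probe sets it was the highest at 20.3% and the lowest at 17.6%, more than any other sample on both counts. Relative to the AA mean it had 0.57 for Sftpb, 0.36 for Napsa, 0.29 for Abca3 and Etv5, 0.18 for Sftpd and 0.10 for Slc34a2, but -0.25 for Lpcat1, at their probe sets of highest mean. AS replicates 1 and 2 lay between -0.30 and 0.19 for the same probe sets. Among the 628 genes with a mean level above 12, AS 3-4 spread from -0.34 to 0.45 (its 5th and 95th percentiles), against -0.19 to 0.15 in AS replicate 1, so the wider scatter was general and Sftpb lay beyond it.

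**Figure D4:**
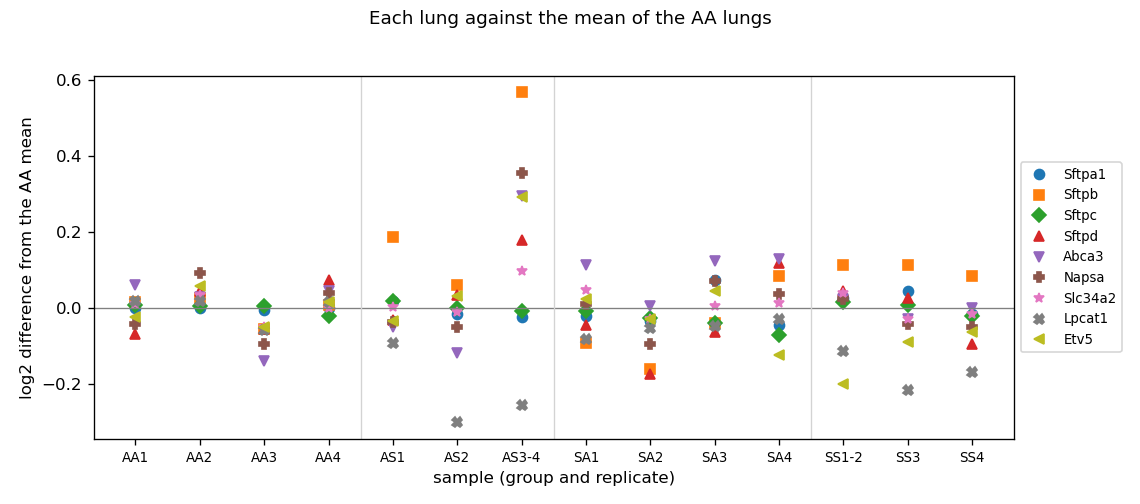
Log2 difference of each of the 14 samples (horizontal axis) from the mean of the AA lungs (vertical axis) for the 9 genes at their probe sets of highest mean. In AS 3-4 Sftpb reaches 0.57 and Napsa 0.36, while Lpcat1 lies at -0.25, and all other samples lie between -0.30 and 0.19.

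Marker lists of AT2 and other cells were read in the same samples, as the mean difference from AA over the genes of a list. In AS 3-4 the 9 members had 0.17, 23 other AT2 markers 0.17, 22 genes of lamellar bodies and precursor processing 0.16 and 23 AT2 regulators 0.19. The lists of surfactant lipid synthesis (19 genes) and surfactant clearance (12) had 0.05 and 0.01 there, both within the range of the other samples. In the other 13 samples the member mean lay between -0.07 and 0.04. In AS 3-4 endothelium (8 genes) had 0.16, club cells (8) 0.14, alveolar type 1 cells (10) 0.11, fibroblasts (8) 0.10, alveolar macrophages (9) 0.03 and ciliated cells (8) -0.07. Red cells (3 genes) had 0.60 and cardiac muscle (7) -0.46, the largest list means of that sample, within the range of the other samples for red cells (-0.61 to 2.15) and below it for cardiac muscle (-0.34 to 0.69). The red cell gene Hba-a1 was read near the bottom of the scale, with group means of 3.787 to 3.915. The red cell mean therefore rests mainly on Alas2 and Slc4a1. The club cell mean was 0.15 and 0.14 in AS replicates 1 and 2. It was 0.07, 0.17 and 0.16 in SS 1-2 and SS replicates 3 and 4, and -0.11 to 0.07 in the AA and SA lungs. Among the club genes, Scgb3a1 had 0.89 in AS minus AA and the others 0.01 to 0.07. Calls in the lists of other cells were read at 1 probe set per gene. In AS minus AA, limma called the club gene Scgb3a1 (adjusted p = 0.0366) and the macrophage gene Slc39a2 (0.36, adjusted p = 0.029). In SS minus SA it called the fibroblast gene Tcf21 (-0.43, adjusted p = 0.0132). The averaged adult effect also called these and the ciliated gene Tekt1 (-0.19, adjusted p = 0.0457). The shares of all probe sets were 1.55%, 1.64% and 5.95%. The part of these cell types in the values of AS 3-4 was not tested.

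The genes around surfactant production were read at 1 probe set each. Over all their probe sets, AS minus AA called 0 of 51 for lipid synthesis and 1 of 53 (lower) for lamellar bodies and processing. It called 6 of 56 (higher) for AT2 regulators, 4 of 42 (higher) for other AT2 markers and 0 of 26 for clearance. In SS minus SA these were 2 (higher), 0, 2 (lower), 3 (higher) and 0. Several probe sets can read 1 gene. The shares called among all probe sets were 1.55% in AS minus AA, 1.64% in SS minus SA and 5.95% in their average. Counts of 0 to 2 genes per list are too few to be read against those shares. The AT2 regulators had more calls in the average, given below, and this was not tested against the share. Of 19 genes of surfactant lipid synthesis, 0 were called in AS minus AA and 1 rose in SS minus SA, the phosphatidate phosphatase Lpin1, by 0.58 ± 0.10 (adjusted p = 0.0101). The list medians were -0.02 and -0.05. The largest differences that did not pass were in Slc16a1, a lactate transporter, with -0.24 (adjusted p = 0.168), and Srebf1, a lipogenic factor, with 0.17 (adjusted p = 0.471), in AS minus AA. In SS minus SA they were in the desaturase Scd1, with -0.33 (adjusted p = 0.154), and the choline kinase Chka, with 0.30 (adjusted p = 0.232). Of 22 genes of lamellar bodies and precursor processing, 0 were called in either comparison. P2ry2, a nucleotide receptor that triggers surfactant release, had 0.49 (adjusted p = 0.0522) and 0.36 (adjusted p = 0.164), and rose by 0.43 ± 0.08 averaged over both (adjusted p = 0.0114). Vamp2, a vesicle fusion protein, had 0.30 in AS minus AA (adjusted p = 0.202), and Rab38, a small GTPase of lysosome-related organelles, -0.28 in SS minus SA (adjusted p = 0.181).

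Of 23 other AT2 markers, Cldn3, a tight junction protein, alone was called, and it rose by 0.51 ± 0.12 in AS minus AA (adjusted p = 0.0429) and 0.55 ± 0.12 in SS minus SA (adjusted p = 0.03). The tight junction gene Cldn18 had 0.22 in AS minus AA (adjusted p = 0.368) and -0.27 in SS minus SA (adjusted p = 0.4), and Lcn2, a siderophore-binding protein, 0.29 in AS minus AA (adjusted p = 0.348). Of 12 genes of surfactant clearance, which alveolar macrophages carry out under the control of Csf2 and Pparg, 0 were called in either comparison. The macrophage factor Spi1 had 0.19 (adjusted p = 0.318) and -0.17 (adjusted p = 0.507), Csf2 had -0.40 in AS minus AA (adjusted p = 0.0838) and Pparg 0.28 in SS minus SA (adjusted p = 0.154).

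Of 23 AT2 regulators, 2 rose in AS minus AA and 2 fell in SS minus SA. The rises were in Spry4 (1.24 ± 0.20, adjusted p = 0.00806) and Dusp6 (0.48 ± 0.08, adjusted p = 0.00971), both feedback inhibitors of the FGF and ERK pathway in which Etv5 acts. The falls were in Foxa2 (-0.44 ± 0.10, adjusted p = 0.0301), a forkhead factor of lung epithelium, and Bmp4 (-0.59 ± 0.10, adjusted p = 0.00848), a growth factor. Averaged over both in-utero exposures, 2 of the 23 rose and 3 fell, beside 5.95% called among all probe sets. Spry4 (0.72 ± 0.14) and the ligand Wnt7b (0.25 ± 0.06) rose. Foxa2 (-0.35 ± 0.07), Bmp4 (-0.27 ± 0.07) and Id2 (-0.22 ± 0.06), an inhibitor of bHLH factors, fell. The adjusted p of these ran from 0.0105 to 0.0399. In AS minus AA the factors Klf5 and Elf3 had 0.40 (adjusted p = 0.076) and 0.35 (adjusted p = 0.206), and in SS minus SA Gata6 had -0.36 (adjusted p = 0.0638) and Id2 -0.32 (adjusted p = 0.0634). Nkx2-1 and Cebpa were picked after their values were seen. Nkx2-1, the master factor of lung epithelium, had 0.19 and -0.04, and Cebpa, a factor of AT2 maturation, 0.14 and -0.03, without passing. AS 3-4 had the highest level of both, 7.43 against 6.70 to 6.95 in the other samples for Nkx2-1 and 11.61 against 10.34 to 10.89 for Cebpa.

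Dusp6 and Spry4, the listed regulators called in AS minus AA, were set beside Etv5 as products of the same pathway. Dusp6 had 12.34, 12.41, 12.41 and 12.38 in the AA lungs and 12.82, 12.87 and 12.92 in the AS samples, with no overlap. The SA lungs had 12.20, 12.13, 11.86 and 12.16, and the SS samples 11.91, 11.85 and 11.97. Its adult effect differed between the in-utero groups by -0.66 ± 0.11 (interaction, adjusted p = 0.0325). The corresponding interaction was -0.45 ± 0.17 for Etv5 at 1420998_at (adjusted p = 0.406) and -0.20 at 1428142_at, where it did not pass.

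**Figure D5:**
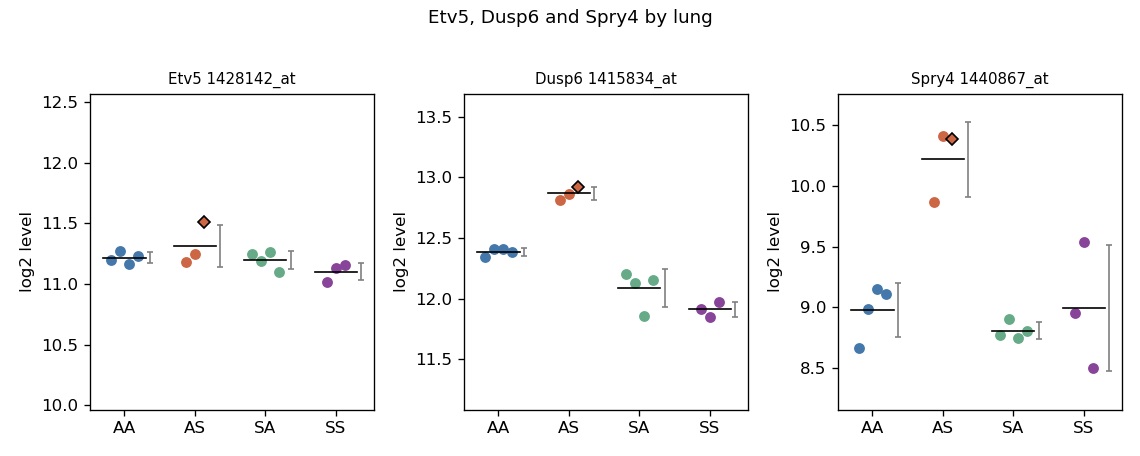
Log2 level (vertical axis, all panels of the same span) in each sample of the 4 groups for Etv5 at its probe set of highest mean and for Dusp6 and Spry4, with group means as bars, ±1 SD as grey lines and AS 3-4 as an outlined diamond. The 3 AS samples of Dusp6, from 12.82 to 12.92, lie above all others, while at Etv5 only AS 3-4, at 11.51, does.

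The genes whose levels across the 14 samples most resembled each member were listed by Pearson r, over 1 probe set per gene and as a description only, since the samples share AS 3-4 and few points carry the correlation. Nearest to Sftpb were Creld1, Ap1s1, Scrn2, Atp6v0b and Ppp5c, with r of 0.948 to 0.964, and 0.805 to 0.877 without AS 3-4. Those for Sftpc were Serpinb6e, Stxbp5l, Sh2d5, Srsf5 and Rbm39, with r of 0.83 to 0.911, and 0.857 to 0.931 without AS 3-4. Sftpa1 was most like Nktr, Virma, Ssbp2, Tacc2 and Pmpca, with r of 0.78 to 0.793, and 0.77 to 0.804 without AS 3-4. Correlations of Sftpc and Sftpa1 concern very small differences, since both genes spanned little. Sftpd was closest to Cpxm1, F7, Srm, Aarsd1 and Calu, with r of 0.85 to 0.896, and 0.789 to 0.854 without AS 3-4. Abca3 at 1451731_at went with Ghdc, Egflam, Prr3, Ctu1 and Src, with r of 0.912 to 0.937, and 0.849 to 0.937 without AS 3-4. Napsa resembled Tufm, Fam234a, Ankrd54, Lgi3 and Pck2, with r of 0.961 to 0.967, and 0.845 to 0.925 without AS 3-4. Of the genes nearest to Napsa and Slc34a2, Lgi3 and Rbpjl are in the list of other AT2 markers. Slc34a2 came nearest to Nkiras2, Xylt2, Zfp513, Ghdc and Rbpjl, with r of 0.875 to 0.902, and 0.769 to 0.845 without AS 3-4. Lpcat1 at 1424460_s_at had as its nearest genes Neat1, Irgm2, Exo5, Exoc1 and Gbp7, with r of 0.889 to 0.91, and 0.861 to 0.895 without AS 3-4. Etv5 at 1428142_at was nearest to Rab24, Nat9, Sufu, Zmiz2 and Atp2a3, with r of 0.902 to 0.955, and 0.728 to 0.885 without AS 3-4.

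Among the members themselves, Napsa, Slc34a2 and Abca3 went together most closely across the 14 samples. Napsa had a Pearson r of 0.86 with Slc34a2 and 0.83 with Abca3, and Abca3 had 0.82 with Slc34a2, which were 0.74, 0.67 and 0.66 without AS 3-4. Sftpb had 0.76 with Napsa and 0.71 with Sftpd, which were 0.14 and 0.54 without AS 3-4. Etv5 had 0.73 with Napsa and 0.51 with Sftpb, which were 0.20 and -0.43 without it. Of these pairs, r dropped most without AS 3-4 for Sftpb with Napsa and for Etv5 with both, and less for Sftpb with Sftpd.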

How the data were processed

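Total RNA of left lungs was measured on 16 Affymetrix whole-genome mouse expression arrays. Whether each near-identical pair of arrays came from 1 lung is not known. The authors deposited 1 log2 value per probe set and array, between 2.4 and 15.11, with nearly equal array medians of 6.9 to 6.93. How background and probes were handled is not given in the sources used here. Only limma is listed as a tool, without a version, per the submitters' processing notes. No detection calls were used.

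After 64 control probe sets were left out, 45037 were tested. Names came from the platform annotation (34945 probe sets with 1 symbol, 932 with several, 9160 with none), updated through Entrez identifiers for 34741 probe sets. Near-identical arrays were averaged, leaving 14 samples.

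One mean per group was fitted with limma 3.58.1 under R 4.3.3 (moderated test, 10 residual degrees of freedom), two-sided, with Benjamini-Hochberg adjustment over all probe sets within a comparison. Errors are standard errors unless named SD. The script was tested on simulated data. The p-values set group differences against the spread between these samples. As no litter or dam is named, they cannot account for a spread between litters. Every member is named at each of its probe sets. List genes are named where called in AS minus AA, SS minus SA or their average. For the lists around surfactant production, the largest uncalled differences (up to 2) are also named. Calls of list genes in other comparisons are not all given. Like genes are the 5 of highest Pearson r per member. The members and lists were chosen with earlier results of these data known. Alternatives comprised the 16 arrays, a replicate block, normalization, filters, spread models and leaving out samples.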

Additional observations from a re-analysis of the deposited data

Results flagged for a closer look

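In 7 of the 40 groups of 4 lungs (20 probe sets in AA and in SA), 1 lung lay apart from the other three by a gap past Dixon's 95% critical value, which chance gives in about 1 of 20 groups. AA replicate 3 was the lowest in 4 of these, with 12.25 for Abca3 1451731_at (others 12.42 to 12.45), 12.88 for Lpcat1 1424460_s_at (others 12.96), 4.12 for Lpcat1 1420294_at (others 4.35 to 4.39) and 14.445 for Sftpa1 1422334_a_at (others 14.452). AA replicate 4 was the lowest for Sftpc 1418639_at, with 15.06 (others 15.08 to 15.09). SA replicate 2 was the lowest for Abca3 1451731_at, with 12.40 (others 12.51 to 12.52), and SA replicate 1 for Lpcat1 1420294_at, with 4.18 (others 4.39 to 4.42). Each gap was under 0.25 on the log2 scale. Among the genes named here, the adult effect differed between the in-utero groups for Dusp6 (interaction, -0.66, limma, adjusted p = 0.0325).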

How the results depend on the processing

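The count of called member probe sets stayed at 0 under every alternative run in SS minus SA, SA minus AA, SS minus AA, the interaction and the averaged in-utero effect. In AS minus AA the count of 1 became 5 with all 16 arrays as separate samples, 2 with a variance trend, and 0 with 1 probe set per gene or only the compared groups in the fit, and it ranged from 1 to 3 when single samples were left out (3 without AS replicate 1). In SS minus AS the count of 1 became 4 with 16 arrays, 0 with 1 probe set per gene, an unmoderated test or only the compared groups, and ranged from 0 to 1 when single samples were left out. The averaged adult effect had 1 in place of 2 with median centring or 1 probe set per gene, and ranged from 1 to 3 (3 without AS 3-4). Fits with only the compared groups were not run for the interaction and the averages, which need all groups. With the replicate block on all 16 arrays, the count was 5 in AS minus AA and 3 in SS minus AS. Same-numbered arrays were not paired by this check: their deviations from the group means correlated between -0.157 and 0.251, and 5 of 16 arrays correlated best with one of their own number. The additional calls with 16 arrays count the near-identical arrays as separate lungs. No called value changed sign under any alternative.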
